A study of Homo sapiens with 8 samples.

Results

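The genes described here are 10 immediate early genes, most of them coding for subunits of the transcription factor AP-1: FOS, FOSB, FOSL1, FOSL2, JUN, JUNB, JUND, EGR1, IER2 and IER3. They were chosen by name, with earlier results of these data known. Every probe set that the platform annotation gives to exactly 1 of them was taken. This made 31 probe sets of the 44988 single-gene probe sets on the array (10 of 18132 genes). The RNA came from AGS, an established line of human gastric adenocarcinoma cells, and each sample was run on 1 Affymetrix array. The groups were 4 control samples and 4 samples of cells grown for 72 hours with 3.4 nM podofilox, a plant compound (podophyllotoxin) that binds tubulin and blocks microtubule assembly. All 8 samples come from this 1 cell line, grown with fetal bovine serum and with antibiotics. What the control cells received in place of the drug, and whether replicates of a group were separate cultures, is not stated by the labels. The p-values therefore reflect only how far these arrays spread, and that spread may be technical.

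Immediate early genes are transcribed within minutes of a growth factor, stress or a change of cell shape, without new protein synthesis, because the factors that switch them on are already present and are activated by MAP kinases. AP-1 is a pair of basic leucine zipper proteins: a JUN protein (JUN, JUNB or JUND) with a FOS protein (FOS, FOSB, FOSL1 or FOSL2) or with another JUN. JUN and FOS messages are usually short-lived, whereas FOSL1 and FOSL2, also called FRA1 and FRA2, are induced later and are themselves AP-1 targets. EGR1 is a zinc finger transcription factor of the same early wave. IER2 codes for a nuclear protein, and IER3 for a membrane-bound regulator of cell survival that is an NF-kB and p53 target.

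The letters through which such genes are known to be switched on can be seen in their promoters. RefSeq windows (GRCh38.p14) from 250 bases before to 50 after the start of transcription were found for 8 of the 10 genes. Stretches of 4 are shown, since JUN, FOS and EGR1 rose in these data and carry textbook elements, and JUND, which did not pass the test, carries a full cyclic AMP response element. Capitals mark TGACATCA in JUN, 2 CArG boxes (the core of a serum response element) in EGR1, TGACG and TATAAA in FOS, and TGACGTCA in JUND. Each stretch is given 5′ to 3′ on the gene's strand.
JUN, minus strand, chr1:58784058-58784157: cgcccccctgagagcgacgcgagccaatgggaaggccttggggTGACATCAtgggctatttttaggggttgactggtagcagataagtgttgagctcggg
EGR1, plus strand, chr5:138465349-138465468: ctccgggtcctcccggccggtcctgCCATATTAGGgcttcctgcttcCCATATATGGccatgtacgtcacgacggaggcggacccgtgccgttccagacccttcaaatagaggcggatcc
FOS, plus strand, chr14:75278748-75278807: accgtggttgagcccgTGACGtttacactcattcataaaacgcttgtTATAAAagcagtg
JUND, minus strand, chr19:18281773-18281842: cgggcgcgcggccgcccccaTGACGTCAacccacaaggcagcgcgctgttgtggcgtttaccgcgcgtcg

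Each motif was searched on both strands of the 8 windows and of all 35116 RefSeq windows of the same length. TGACG, or CGTCA on the other strand, was in 8 of 8 windows and in 24.6% of all windows, and it overlaps TGACGTCA. The full TGACGTCA was in JUND alone of the 8 and in 1.85% of all windows. TGACATCA was in JUN alone of the 8 (2.61% of all windows), the CArG box in EGR1 alone (1.29%), and the AP-1 element TGACTCA, or TGAGTCA on the other strand, in FOSL2 alone (4.95%). TATAAA was in FOS, FOSB and JUNB (11.5% of all windows). The EGR1 element GCGTGGGCG or GCGGGGGCG was in 0 of the 8 windows and in 5.77% of all. A match describes letters only. Letters more than 250 bases before the start were not searched, so a promoter may hold any of these elements further away.

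The AP-1 and immediate early genes were higher with podofilox wherever they passed the test. The rises were 1.13 to 1.38 times on the brightest probe set of each gene, and up to 1.41 times on other probe sets. By limma with Benjamini-Hochberg adjustment over 18132 genes, each read from its brightest probe set, FOS, FOSL1, FOSL2, JUN, EGR1 and IER3 rose (6 of 10), and FOSB, JUNB, JUND and IER2 did not pass. Over all genes tested, 8.55% rose. The 10 genes were chosen with earlier results of these data known, so such shares are descriptions only. All 10 also lay above the median gene in signal, where more genes passed. Among the 9066 genes above that median, tested apart, 1481 rose and 2593 fell, and 7 of the 10 rose. None of the 10 fell (0 by limma, 0 at an unadjusted p under 0.05, and 0 with ordinary variances per gene), while 12.5% of all genes fell. The median log2 difference, podofilox minus control, was 0.20 over the 10 genes and 0.01 over all genes. In a further fit over all 44988 single-gene probe sets, 18 of the 31 probe sets of these genes rose, beside 7.83% of all probe sets, and 0 fell, beside 10.2% (0 also at an unadjusted p under 0.05). The 4 podofilox arrays lay above the 4 control arrays on 22 of the 31 probe sets, beside 10.5% of all probe sets, and below them on 0, beside 13.8%. Among the 22494 probe sets above the median signal, tested apart, 3673 rose and 5272 fell, and 19 probe sets of the 10 genes rose. Dimmer probe sets of these genes did not enter that fit, so the 19 are not a share of the 31. Probe sets of 1 gene share its transcripts, so they are not independent measurements. The arrays measure whole cultures, so a change in every cell and a change in a share of the cells cannot be told apart.

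**Figure D1:**
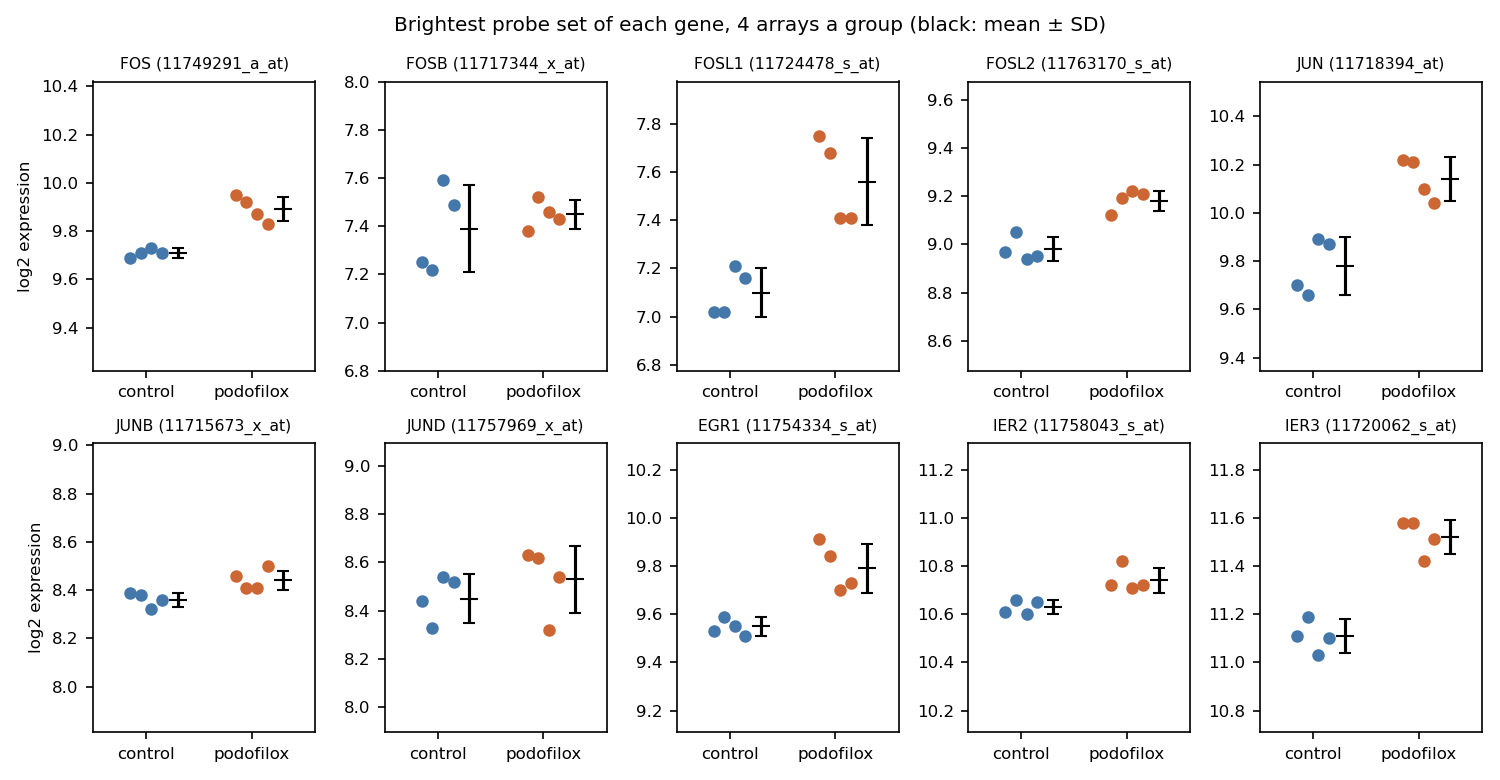
Deposited log2 expression on the brightest probe set of each gene, with 1 point an array in replicate order (blue control, orange podofilox) and the mean ± SD (n = 4) in black; each panel spans the same range of 1.2 log2 units. All 4 podofilox arrays lie above all 4 control arrays in FOS, FOSL1, FOSL2, JUN, JUNB, EGR1, IER2 and IER3 (8 of 10, beside 10.6% of all genes), and the groups overlap in FOSB and JUND.

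Values below are log2 expression, differences are podofilox minus control on that scale, and adjusted p-values of the 10 genes come from the limma fit over all single-gene probe sets unless said otherwise. Those of all other genes come from the fit of 1 probe set per gene over 18132 genes. SE is limma's moderated standard error. The array's probe sets cannot be compared in level with each other, so for the 10 genes and the lists around them only differences are set side by side.

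Among the genes of FOS proteins, FOSL1 and FOSL2 had the largest rises on single probe sets. On the brightest FOSL1 probe set (11724478_s_at), control arrays 1 to 4 read 7.02, 7.02, 7.21 and 7.16, and podofilox arrays 1 to 4 read 7.75, 7.68, 7.41 and 7.41. Every podofilox array was above every control array, and podofilox arrays 1 and 2 were the highest. FOSL1 thus rose by 0.46 (SE 0.09, 95% interval 0.27 to 0.66, adjusted p = 0.00499), or 1.38-fold. Of its 6 probe sets 4 rose. The rise was 0.40 on 11724479_x_at and 0.34 on 11724477_a_at, where control arrays were at 6.62 ± 0.07 and podofilox arrays at 6.96 ± 0.04 (SD, n = 4 each). On 11760284_a_at it was 0.25 (adjusted p = 0.0358), a call that ended on leaving out control replicate 2, 3 or 4 or podofilox replicate 1 or 2 (0.20 to 0.28, adjusted p up to 0.0898). The remaining pair of FOSL1 probe sets differed by 0.18 (adjusted p = 0.0626) and 0.07 (adjusted p = 0.402) and did not pass.

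FOSL2 was uneven over its 5 probe sets. On 11731599_a_at, control arrays read 7.12, 7.16, 7.12 and 7.10, and podofilox arrays 7.69, 7.61, 7.55 and 7.64. The groups were set apart by 0.39, the widest gap between groups among the 31 probe sets. The difference of 0.49 (SE 0.05, 95% interval 0.39 to 0.60, adjusted p = 0.000103), 1.41-fold, was also the largest of the 31. A rise of 0.47 (SE 0.06, adjusted p = 0.000561) was seen on 11763171_at, from 8.44 ± 0.09 to 8.91 ± 0.07 (SD, n = 4 each). The brightest FOSL2 probe set, 11763170_s_at, rose by 0.21 (SE 0.05, adjusted p = 0.013), with control arrays between 8.94 and 9.05 and podofilox arrays between 9.12 and 9.22. By contrast, 11763169_at differed by 0.14 (95% interval 0.04 to 0.23) and lay just outside the threshold (adjusted p = 0.0504), although its groups did not overlap. The dimmest, 11731600_a_at, differed by -0.09 (95% interval -0.23 to 0.04, adjusted p = 0.344), with overlapping groups. Whether the probe sets of FOSL2 differ from each other was not tested, and the transcripts that each one binds are not listed in the files.

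FOS, the founding member of the family, rose on 2 of its 4 probe sets. Its brightest probe set, 11749291_a_at, read 9.69, 9.71, 9.73 and 9.71 on control arrays and 9.95, 9.92, 9.87 and 9.83 on podofilox arrays. The control values lay close together, below all podofilox values. The rise was 0.18 (SE 0.04, 95% interval 0.08 to 0.28, adjusted p = 0.018), or 1.13-fold, and its call ended on leaving out control replicate 4 (adjusted p = 0.0538) or podofilox replicate 2 (adjusted p = 0.0549). In the fit of 1 probe set per gene it held on leaving out any array. A further FOS probe set, 11734659_a_at, rose by 0.21 (adjusted p = 0.0418), where podofilox replicate 3 read 10.00 and the other podofilox arrays 9.77 to 9.80. That call ended on leaving out control replicate 1, 3 or 4 or podofilox replicate 2, 3 or 4 (0.16 to 0.23, adjusted p up to 0.111). The other FOS probe sets, both of the _s_at kind (probes that may match several transcripts), differed by 0.08 and 0.11, with overlapping groups (adjusted p = 0.398 and 0.201).

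FOSB, whose product pairs with JUN proteins as FOS does, did not pass on either probe set. On 11717344_x_at control arrays read 7.25, 7.22, 7.59 and 7.49 and podofilox arrays 7.38, 7.52, 7.46 and 7.43. Control arrays 1 and 2 were the lowest and control arrays 3 and 4 were among the highest, so the podofilox values lay inside the control range. The difference was 0.06 (95% interval -0.13 to 0.24, adjusted p = 0.681). The other probe set, 11717345_a_at, differed by -0.01 (95% interval -0.17 to 0.14, adjusted p = 0.916).

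**Figure D2:**
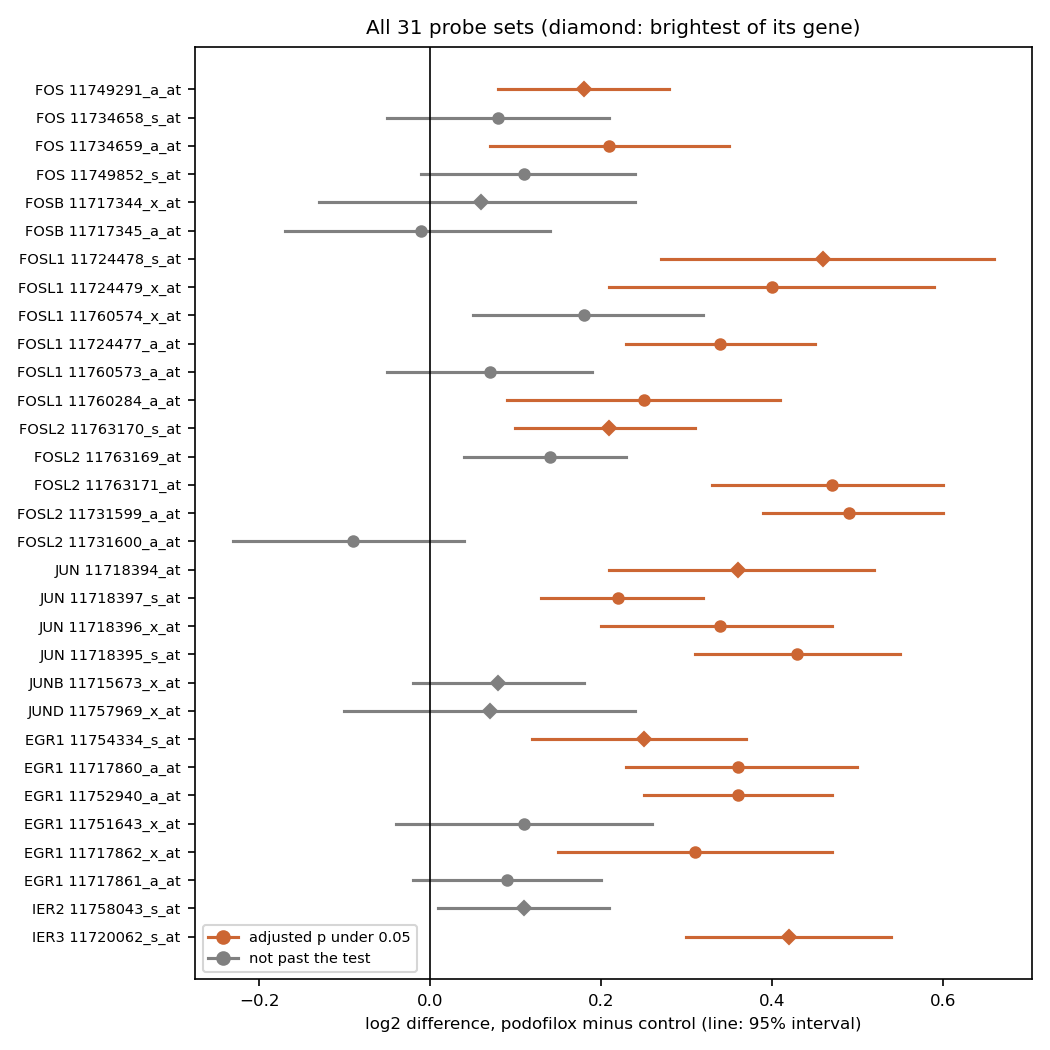
Log2 difference, podofilox minus control, with its 95% interval for all 31 probe sets, from limma over 44988 single-gene probe sets; diamonds mark the brightest probe set of each gene, and orange marks an adjusted p under 0.05. The 18 that rose lie between 0.18 and 0.49, and 2 of the other 13 lie below 0.

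Of the genes of JUN proteins, JUN rose and the others, each read from a single _x_at probe set, did not pass. JUN, a strong activator of transcription, rose on each of its 4 probe sets. The brightest, 11718394_at, read 9.70, 9.66, 9.89 and 9.87 on control arrays and 10.22, 10.21, 10.10 and 10.04 on podofilox arrays. The groups did not overlap, and within each group arrays 1 and 2 were close to each other, as were arrays 3 and 4. JUN rose here by 0.36 (SE 0.07, 95% interval 0.21 to 0.52, adjusted p = 0.00472), or 1.29-fold. On 11718395_s_at it rose by 0.43 (SE 0.05, adjusted p = 0.000564), from 9.11 ± 0.06 to 9.53 ± 0.08 (SD, n = 4 each). The rises on 11718396_x_at and 11718397_s_at were 0.34 and 0.22 (adjusted p = 0.00397 and 0.00555). All 4 calls held on leaving out any 1 array (adjusted p up to 0.026).

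JUNB, which often opposes JUN in growth control, has 1 probe set here, 11715673_x_at. Control arrays read 8.39, 8.38, 8.32 and 8.36 and podofilox arrays 8.46, 8.41, 8.41 and 8.50. The groups did not overlap, but the gap between them was only 0.02. The difference of 0.08 (SE 0.04, 95% interval -0.02 to 0.18, adjusted p = 0.251) did not pass. JUND, a JUN protein made steadily in many resting cells, also has 1 probe set, 11757969_x_at, with 8.44, 8.33, 8.54 and 8.52 on control arrays and 8.63, 8.62, 8.32 and 8.54 on podofilox arrays. Podofilox replicate 3 was the lowest of the 8 arrays and podofilox replicates 1 and 2 were the highest, so the groups overlapped. The difference was 0.07 (SE 0.08, 95% interval -0.10 to 0.24, adjusted p = 0.562). The intervals reach 0.18 for JUNB and 0.24 for JUND, so they leave room for rises of that size. Whether JUN differs from JUNB or JUND in its change was not tested.

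EGR1 rose on 4 of its 6 probe sets. On the brightest, 11754334_s_at, control arrays read 9.53, 9.59, 9.55 and 9.51 and podofilox arrays 9.91, 9.84, 9.70 and 9.73. All podofilox arrays were above all control arrays, with podofilox arrays 3 and 4 nearest to them. The rise was 0.25 (SE 0.06, 95% interval 0.12 to 0.37, adjusted p = 0.0119), or 1.19-fold. On 11752940_a_at, EGR1 rose by 0.36 (SE 0.05, adjusted p = 0.000842), from 7.73 ± 0.06 to 8.09 ± 0.05 (SD, n = 4 each). It rose by 0.36 on 11717860_a_at as well (adjusted p = 0.00273), and by 0.31 on 11717862_x_at (adjusted p = 0.0149). The probe sets 11751643_x_at and 11717861_a_at differed by 0.11 and 0.09 and did not pass (adjusted p = 0.318 and 0.235). All 4 calls held on leaving out any 1 array (adjusted p up to 0.0455).

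IER3 gave the smallest p of the 10 genes in the fit of 1 probe set per gene. Its only probe set, 11720062_s_at, read 11.11, 11.19, 11.03 and 11.10 on control arrays and 11.58, 11.58, 11.42 and 11.51 on podofilox arrays. The groups were 0.24 apart. IER3 rose by 0.42 (SE 0.05, 95% interval 0.30 to 0.54, adjusted p = 0.000639), or 1.34-fold, and the call held on leaving out any 1 array (adjusted p up to 0.00351). IER2, read from 11758043_s_at, was at 10.61, 10.66, 10.60 and 10.65 on control arrays and at 10.72, 10.82, 10.71 and 10.72 on podofilox arrays. Its groups did not overlap, but the difference of 0.11 (SE 0.05, 95% interval 0.01 to 0.21, adjusted p = 0.127) did not pass. In the same fit over probe sets, IER2 was called among probe sets above the median signal (adjusted p = 0.0455), with an intensity trend and robust estimation (adjusted p = 0.0356) and with array weights (adjusted p = 0.0445).

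Several differences were unequal between arrays numbered 1 and 2 and arrays numbered 3 and 4, a split that the labels do not name as a batch. FOSL1 on its brightest probe set differed by 0.70 within arrays 1 and 2 and by 0.23 within arrays 3 and 4, where the call ended (adjusted p = 0.0725). JUN on its brightest probe set differed by 0.54 and 0.19 in the same order, and its call also ended within arrays 3 and 4 (adjusted p = 0.109). FOS on 11734659_a_at went the other way, with 0.10 and 0.32. IER3 (0.43 and 0.41), FOSL2 on 11731599_a_at (0.50 and 0.48) and EGR1 on 11752940_a_at (0.34 and 0.38) were nearly the same in the pairs. These patterns varied between probe sets of 1 gene. On their brightest probe sets, EGR1 differed by 0.31 and 0.18 and FOSL2 by 0.14 and 0.27. FOSL1 on 11724477_a_at differed by 0.36 and 0.32, and JUN on 11718397_s_at by 0.20 and 0.24. All 18 probe sets that rose had a positive difference within each pair of arrays, and 13 of them had the larger one within arrays 1 and 2. Whether the size of a difference depends on the pair was not tested.

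**Figure D3:**
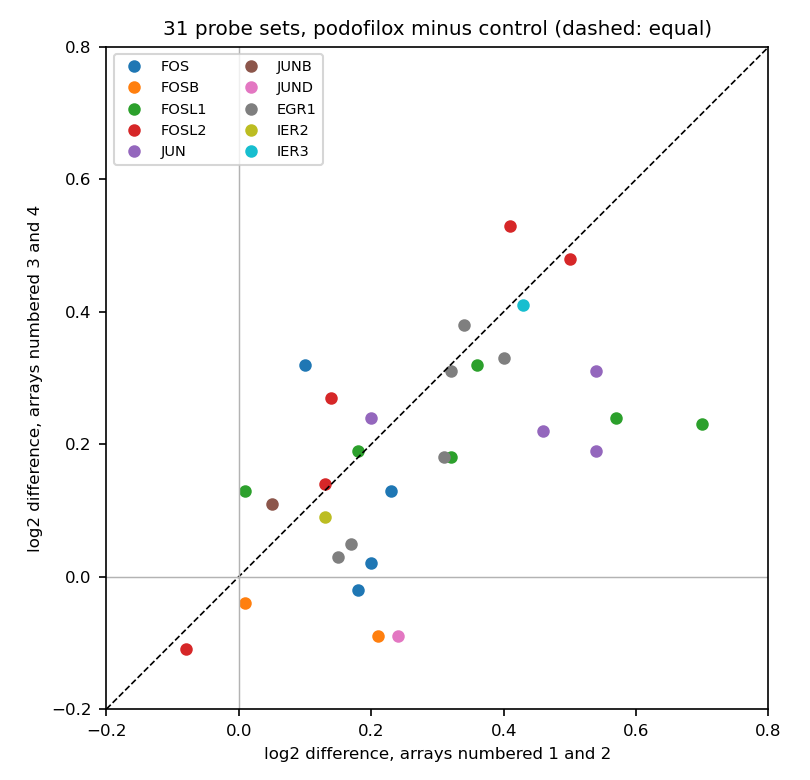
Each point is 1 of the 31 probe sets, with its log2 difference, podofilox minus control, within arrays numbered 1 and 2 on the x axis and within arrays numbered 3 and 4 on the y axis (2 arrays a group); the dashed line marks equal differences. The brightest probe sets of FOSL1 (0.70 and 0.23) and JUN (0.54 and 0.19) lie below the line, and IER3 at 0.43 and 0.41 lies near it.

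The partners with which FOS and JUN proteins can form other dimers were mostly not called. Of 14 measured dimer partners (the ATF, BATF, MAF and related basic leucine zipper genes), 2 rose and 0 fell by limma (2 had a negative difference at an unadjusted p under 0.05, and 0 fell with ordinary variances per gene). That is 14.3% called, beside 21.0% of all genes called in either direction. MAFF, a small MAF protein that lacks an activating domain, rose by 0.76 (SE 0.06, adjusted p = 3.79e-05), from 7.04 ± 0.10 to 7.80 ± 0.06 (SD, n = 4 each). That probe set is of the _x_at kind. The other MAFF probe set rose by 0.27, and the average of the 2 differed by 0.52 (adjusted p = 4.88e-05 by limma). ATF3, a stress-induced partner of JUN, rose by 0.55 (SE 0.06, adjusted p = 0.000175), from 8.79 ± 0.09 to 9.34 ± 0.07 (SD, n = 4 each). The other 12 lay between -0.19 and 0.17 on their brightest probe sets, and the median of the list was 0.03. In the fit over probe sets, 1 of 2 probe sets of NFE2L2 and 1 of 7 of CREB1 fell. The average of the NFE2L2 probe sets differed by -0.14 (adjusted p = 0.0406 by limma).

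Other immediate early genes rose, with 1 exception, wherever they passed the test. Of 34 measured, 17 rose and 1 fell (52.9% called), where 8.55% of all genes rose, 12.5% fell and 21.0% were called. The median was 0.17 beside 0.01 over all genes. Among the 9066 genes above the median signal, 22 genes of the list were called in either direction, beside 1481 rising and 2593 falling. Genes of the list below that median did not enter this fit, so the 22 are not a share of the 34. The list was written with earlier results of these data known, so its shares are descriptions only. PHLDA1, a regulator of cell survival, rose by 0.80 (SE 0.04, adjusted p = 7.44e-06), and DUSP1, a phosphatase that switches MAP kinases off, by 0.71 (SE 0.05, adjusted p = 1.5e-05). TRIB1, a pseudokinase that binds MAP kinase kinases, rose by 0.65 (SE 0.04). BTG1, which restrains proliferation, rose by 0.50 (SE 0.04), but its brightest probe set is of the _s_at kind, and without _x_at and _s_at probe sets it differed by 0.16 and did not pass (adjusted p = 0.393).

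Genes upstream of AP-1 had no common direction. Of 28 measured kinases, SRF cofactors and regulators, 6 rose and 3 fell (32.1% called), beside 8.55% rising, 12.5% falling and 21.0% called over all genes. Among the 9066 genes above the median signal, where more of all genes passed, 11 genes of the list were called in either direction, beside 1481 rising and 2593 falling. Genes of the list below that median did not enter this fit, so the 11 are not a share of the 28. Whether the list differs from other genes of like signal was not tested. The median of the list was -0.01, and 0.01 over all genes. Their calls were small and moved with single arrays: 9 were called with all arrays, 5 without control replicate 3 or without podofilox replicate 4, and 3 without control replicate 4 or without podofilox replicate 2. MAP3K5, the stress kinase ASK1, rose by 0.32 (SE 0.06, adjusted p = 0.00371), and FBXW7, which marks JUN and MYC for degradation, by 0.23 (SE 0.05, adjusted p = 0.00731). MAP2K6, which activates p38, fell by 0.35 (SE 0.07, adjusted p = 0.00532), but the average of its 2 probe sets did not pass (-0.15, adjusted p = 0.0905). RPS6KA4, a kinase of histone H3 and CREB, fell by 0.17 (SE 0.04, adjusted p = 0.0212). The call of RPS6KA4 ended on leaving out control replicate 3 or 4 or podofilox replicate 1 or 2 (-0.16 to -0.15, adjusted p up to 0.0657), and the average of its 4 probe sets differed by -0.04 (adjusted p = 0.495).

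Of 27 measured genes listed as AP-1 targets, 13 rose and 2 fell (55.6% called), again beside 8.55%, 12.5% and 21.0% over all genes. The median was 0.20 beside 0.01. Among the 9066 genes above the median signal, 12 genes of the list were called in either direction, beside 1481 rising and 2593 falling. Genes of the list below that median did not enter this fit, so the 12 are not a share of the 27. CXCL8, the chemokine interleukin-8, rose by 1.23 (SE 0.05, adjusted p = 2.96e-06). PLAUR, which binds urokinase at the cell surface, rose by 0.93 (SE 0.04, adjusted p = 5.16e-06), and EZR, which links actin to the membrane, by 0.53 (SE 0.04, adjusted p = 3.84e-05). CCND1, cyclin D1, went the other way and fell by 0.42 (SE 0.04, adjusted p = 0.000119) on its brightest probe set, and its 4 probe sets all fell, with differences from -0.44 to -0.39. The rises of CXCL8 and PLAUR were known from these arrays when the list was written, so they are no independent evidence of the list's direction. Many of these genes also answer to other factors, and no binding of AP-1 was measured.

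**Figure D4:**
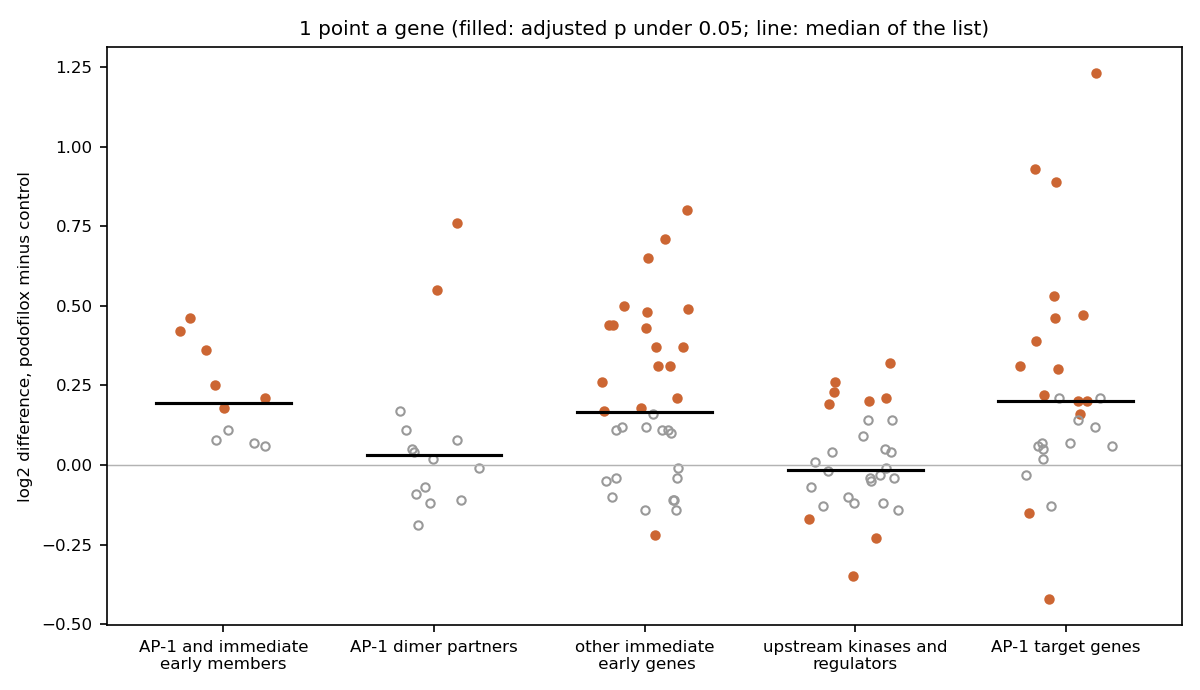
Log2 difference, podofilox minus control, on the brightest probe set of each gene, with 1 point a gene, for the 10 AP-1 and immediate early genes and the 4 lists around them; filled points have an adjusted p under 0.05 over 18132 genes, and the line is the median of the list. The medians are 0.20, 0.03, 0.17, -0.01 and 0.20 from left to right.

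For each of the 6 genes that rose, the genes with the most similar profile were taken as those with the smallest root mean square difference over the 8 arrays, after centring each gene on its own mean. For IER3 they were PDGFA, a growth factor (0.029 log2 units), and RHOB, a small GTPase and itself an immediate early gene (0.035). The nearest to JUN were LOC100507412 (0.039) and ZNF697 (0.051), and those to FOSL1 were FRY (0.052) and HEG1 (0.058). For EGR1 they were YIPF5 and CRISPLD1 (0.025 each), for FOSL2 RAB5A and BTG3 (0.023 each), and for FOS AKAP4 (0.015) and BCL2L1 (0.019). These are descriptions over 8 arrays among 18131 other genes, and none was tested.

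The arrays resembled each other closely. Their medians over all probe sets ran from 6.39 to 6.45, and the correlation across genes (not independent replicates) was 0.997 to 0.999 within a group and 0.995 to 0.997 between groups. Places against the median gene and sums over a marker list compare levels of different probe sets, so they are only a rough guide. The 8 epithelial markers all lay above the median gene. CLDN4 (0.50), CLDN7 (0.37) and ELF3 (0.27) rose, and the summed level of this list was 15.50 to 15.55 in control and 15.65 to 15.69 in podofilox arrays, on the log2 scale. Of 6 gastric gland markers only TFF1 lay above the median gene, and it rose (1.08). Fibroblast markers were all below the median gene, with 0 of 6 called by limma, and their summed level ran from 7.46 to 7.62 in control and from 7.48 to 7.60 in podofilox arrays. The summed immune cell markers ran from 13.55 to 13.69 and from 13.54 to 13.74, mostly from LYZ, which gastric epithelial cells also make, and CD68 rose (1 of 5 called). The summed endothelial markers ran from 8.02 to 8.45 and from 8.14 to 8.33, with CDH5 lower (1 of 4 called). The ranges of the fibroblast, immune and endothelial lists overlapped between the groups. What part any marker list has in the rises of the AP-1 genes was not tested.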

How the data were processed

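The values are log2 expression per probe set, made by the authors with RMA (robust multi-array average) per the submitters' processing notes. Which software ran it is not stated there. That the scale is log2 was judged from its range (2.64 to 15.02). No detection calls come with them, and 4 arrays a group limit the precision.

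Of 49395 probe sets, 102 were manufacturer controls, 44988 had 1 gene in the platform annotation, 1832 had several and 2473 were unnamed here. Each gene was represented by its brightest single-gene probe set (18132 genes). The groups were compared by limma 3.58.1 under R 4.3.3, using all 8 arrays and no covariate (lmFit, eBayes, two-sided), once over genes and once over single-gene probe sets, with Benjamini-Hochberg adjustment over all of them and a threshold of 0.05. The fit was tested on simulated data. Promoter windows were RefSeq's, and figures were drawn with matplotlib 3.10.9.

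The members and lists were chosen with earlier results of these data known. The named genes are the 10 members, up to 4 called genes of each list with the smallest p, and the 2 most similar genes of each member that rose. Arrays 1 and 2 and arrays 3 and 4 were also compared apart, because earlier results showed such pairs. Other alternatives were a filter on dim genes, further normalization, median centring, trend and robust estimation, array weights, blocks, ordinary variances per gene, leaving out _x_at and _s_at probe sets, the mean over probe sets, and leaving out each array. Replicate numbers were not taken as pairs.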

Additional observations from a re-analysis of the deposited data

Results flagged for a closer look

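In groups of 4 arrays, an array was singled out where its gap to the nearest other array was too large a share of the group's range by Dixon's test at 95%. This happened in 5 of the 62 groups of the 31 probe sets, and chance alone gives about 1 in 20. Podofilox replicate 3 read 10.00 on FOS 11734659_a_at, where the other podofilox arrays read 9.77 to 9.80. Control replicate 2 read 6.93 on FOSL1 11760574_x_at, where the other control arrays read 7.07. Control replicate 3 read 6.73 on FOSL1 11724477_a_at, and the other control arrays read 6.58. Control replicate 1 read 6.43 on FOSL2 11731600_a_at, and the others 6.28 to 6.30. Podofilox replicate 2 read 10.82 on IER2 11758043_s_at, and the others 10.71 to 10.72. These are 5 different arrays.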

How the results depend on the processing

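No member gene and no member probe set fell under any alternative (0 each). With all arrays, 6 member genes and 18 member probe sets rose, and leaving out 1 array at a time gave 6 and 15 to 18. With 2 arrays a group the counts dropped, to 3 genes and 11 probe sets within arrays 1 and 2 and to 2 genes and 7 probe sets within arrays 3 and 4, where fewer samples were tested. Without _x_at and _s_at probe sets, 9 member probe sets rose, since 17 of the 31 are of those kinds. JUNB, JUND, IER2 and IER3 have no probe set of another kind, so these 4 genes were absent from that fit. The dimer partners called numbered 4 with trend and robust estimation and 4 with array weights, in place of 2. Within arrays 1 and 2, 10 other immediate early genes, 8 AP-1 targets and 0 upstream genes were called, in place of 18, 15 and 9. Leaving out 1 array gave 3 to 9 upstream genes. With the replicate number as a block, 4 upstream genes were called, and 5 member genes and 16 member probe sets rose; FOS lost its call (adjusted p = 0.0505 in the fit over genes). The numbers were not treated as pairs, as deviations of same-numbered arrays correlated at -0.131, 0.089, -0.238 and 0.061. Some differences that did not pass changed sign. Within arrays 3 and 4, FOS 11734658_s_at was at -0.02, FOSB 11717344_x_at at -0.09 and JUND at -0.09. FOSB 11717345_a_at was at 0.01 with array weights and at 0.01 within arrays 1 and 2, and ranged from -0.07 to 0.02 on leaving out 1 array. Without _x_at and _s_at probe sets FOSB was at -0.01. Where no cause is stated, the cause was not tested.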

Other observations

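Within the list of other immediate early genes, families were looked at after their values were seen, so nothing here is a test of a family. KLF and DUSP genes outside the list were not looked at. All 4 KLF genes of the list, which code for zinc finger transcription factors, rose, beside 8.55% of all genes. KLF2 rose by 0.49 (SE 0.05), KLF4 by 0.48 (SE 0.09), KLF6 by 0.44 (SE 0.04) and KLF10 by 0.31 (SE 0.08). The call of KLF10 ended without control replicate 3 or 4 or podofilox replicate 4 (adjusted p up to 0.0632). Of the 5 DUSP genes of the list, phosphatases that restrain MAP kinases, 3 rose (beside the same share). Among them were DUSP4 by 0.31 (SE 0.04) and DUSP6 by 0.37 (SE 0.07), besides DUSP1. EGR3 and EGR4, relatives of EGR1, did not pass (-0.05 and 0.11, adjusted p = 0.551 and 0.291). Other families of the list were mixed. Of 3 NR4A genes 1 rose and 2 did not pass, with differences from -0.11 to 0.17. The call of NR4A1 ended without control replicate 3 (adjusted p = 0.0527). Of 3 ZFP36 genes 1 rose, 1 fell and 1 did not pass. ZFP36 differed by 0.26 and ZFP36L2 by -0.22 (adjusted p = 0.00309). ZFP36L2 was the only gene of the list that fell.

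Among the AP-1 targets, 4 of the 6 matrix metalloproteinase genes of the list rose, beside 8.55% of all genes. Those outside the list were not looked at. MMP10 (0.46), 1 of the 4 that rose, lost its call without any 1 of the control replicates or without podofilox replicate 1 (adjusted p up to 0.0798). Its signal was low, at 4.40 ± 0.06 in control and 4.86 ± 0.33 in podofilox arrays (SD, n = 4 each). MMP9 also rose (0.22, SE 0.04) at low signal, from 4.65 ± 0.03 to 4.87 ± 0.04. The median gene was at 6.99. Without detection calls, it is not known whether MMP9 and MMP10 were expressed. MMP1, interstitial collagenase, rose by 0.39 (SE 0.05), from 11.33 ± 0.08 to 11.72 ± 0.03 (SD, n = 4 each). MMP7, matrilysin, rose by 0.89 (SE 0.12), from 6.28 ± 0.22 to 7.17 ± 0.21 (SD, n = 4 each), and its 4 probe sets differed by -0.09 to 1.46, with 3 of them rising. Arrays 1 and 2 gave a difference of 1.14 and arrays 3 and 4 one of 0.64.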
